A study of Mus musculus with 4 samples.

Results

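The E2F transcription factors and the retinoblastoma proteins that hold them in check were examined in RNA of CD24+ emergency progenitors (EPs) from mouse spleen. The set was taken by gene symbol from a list of 10 names, namely *E2f1*, *E2f2*, *E2f3*, *E2f4*, *E2f5*, *E2f7*, *E2f8*, the dimer partner *Tfdp1* and the pocket protein genes *Rb1* and *Rbl1*. All 10 were found among the 40213 symbols of the count files, and counts were summed over the transcript rows of each symbol. EPs are CD11c+CD117+ cells that expand when Flt3 ligand is given. The study describes them as a mixed population that holds dendritic cell (DC) progenitors and also differentiated conventional DCs.

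Both groups of mice carried floxed TopBP1 alleles (TopBP1 fl/fl). WT denotes littermates without Cre, and TopBP1cKO denotes mice that also carried CD11c-cre, in which Cre is driven by regulatory sequence of *Itgax*, the gene of CD11c. All mice were young adults and were injected i.p. with Flt3L-Ig (10 μg each on days 0 and 3), and splenic CD24+ EPs were sorted on day 9. There were 2 libraries per group, and neither the labels nor the methods say how many mice went into each, so P values measure the spread between these libraries.

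E2F factors bind DNA as dimers with a DP protein such as the product of *Tfdp1* and switch on genes that a cell needs to enter and pass through S phase. The pocket proteins pRB (*Rb1*), p107 (*Rbl1*) and p130 (*Rbl2*) bind E2Fs and keep these genes silent. Phosphorylation of the pocket proteins by cyclin-dependent kinases (CDKs) releases the E2Fs. TopBP1 is known to bind E2F1 and to restrain its activity, including its induction of apoptosis. DC progenitors are known to divide as they give rise to DCs.

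Library totals lay between 14561583 and 15193831 counts. Markers of DCs and their progenitors were abundant, as *Flt3*, *Kit*, *Itgax*, *Cd24a*, *Irf8*, *Id2*, *Cd74* and *Xcr1* each had at least 5916 counts in every library. *Xcr1*, a marker of type 1 conventional DCs, had 9540 to 11385. The others on that list were lower, with at least 3005 counts for *Zbtb46* and 1068 for *Batf3*. *Topbp1*, the targeted gene, had 1102 and 1143 counts in WT, 773 in the library labelled TopBP1cKO replicate 1 and 1279 in the library labelled TopBP1cKO replicate 2. The second of these was not below WT, and counts summed over transcripts do not show whether the floxed exons were lost. The group is therefore called by its label throughout. Of 12393 genes tested between the groups by the quasi-likelihood test of edgeR, 0.0807% were called higher and 0.0242% lower at a Benjamini–Hochberg false discovery rate (FDR) < 0.05 in the libraries labelled TopBP1cKO.

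To compare levels between genes, CPM (counts scaled to a common library size) were divided by the length in kilobases of the most counted transcript of each gene. In WT EPs, *E2f4* was the most abundant of the 10 genes per length, at 31.6 and 40.4 CPM per kb. *E2f4* encodes an E2F that acts mainly as a repressor together with pocket proteins. *Tfdp1* (15.6 ± 0.658 CPM per kb, SD, n = 2), *Rb1* (14.1 ± 0.499) and *Rbl1* (11.4 ± 0.711) followed. The pocket protein partner *E2f5* (7.48 ± 0.593), the repressor *E2f8* (6.46 ± 0.459), *E2f1* (4.91 ± 0.0367), *E2f3* (3.51 ± 0.00567) and *E2f2* (3.17 ± 0.250) came next, and *E2f7* was the lowest at 0.631 ± 0.00285. Neighbours in this order did not overlap between the WT libraries, although the choice of a single length per gene enters each value.

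Most of the E2F and retinoblastoma genes stood higher in the libraries labelled TopBP1cKO, and by far the larger differences were in replicate 2. Of the 10 genes, 8 were higher and 1 was lower in both of these libraries than in both WT libraries. Over all genes tested, 22.8% were higher and 20.8% lower in this way. The median log2 fold change of the 10 was 0.79, against 0.0084 over all genes tested. None of the 10 passed FDR < 0.05. At an unadjusted P value below 0.05, 7 were higher and 0 lower, where 6.95% of all genes were higher and 3.77% lower. In bulk RNA, a larger share of cells that express a gene and more RNA per cell cannot be told apart.

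**Figure D1:**
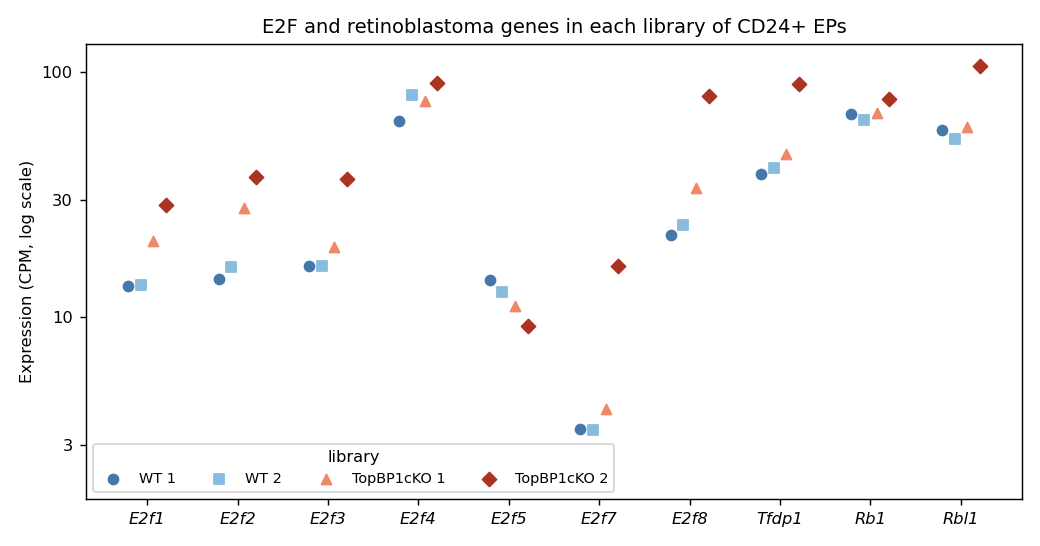
Expression in CPM (log scale) of the 10 E2F and retinoblastoma genes in each of the 4 libraries, 1 point per library. The library labelled TopBP1cKO replicate 2 is the highest for 9 genes and the lowest for *E2f5*, and replicate 1 lies close to WT for *E2f4*, *Rb1* and *Rbl1*.

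*E2f1*, *E2f2* and *E2f3* encode the activator E2Fs, which drive entry into S phase. *E2f2* had 14.2 and 15.9 CPM in WT against 27.8 and 37.1 CPM in the libraries labelled TopBP1cKO replicates 1 and 2. Neither of the latter reached down to the WT values. The log2 fold change was 1.11 (SE 0.19, FDR 0.182), with the smallest P value among the 10 genes. *E2f1* had 13.4 and 13.5 CPM in WT against 20.3 and 28.7 CPM in the libraries labelled TopBP1cKO, without overlap (log2 fold change 0.87, SE 0.21, FDR 0.307). *E2f3* had 16.0 and 16.1 CPM in WT against 19.2 and 36.4 CPM in the libraries labelled TopBP1cKO (log2 fold change 0.79, SE 0.28, FDR 0.386). Of the activators, *E2f1* and *E2f2* were thus higher in each of these libraries by at least 0.60 on the log2 scale, whereas *E2f3* was 0.26 above the WT mean in replicate 1 and 1.18 in replicate 2. *E2f1* had 2 transcript rows with unlike values. One held 127 and 100 counts in WT against 152 and 83 in the libraries labelled TopBP1cKO, and the other 62 and 104 in WT against 158 and 361. How reads shared by these transcripts were divided was not stated.

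*E2f3* is transcribed from an upstream start, which gives E2F3a, and from a start within the gene, which gives E2F3b. E2F3a is known to rise as cells enter the cycle, and E2F3b to be made in resting cells as well. Its 7 transcript rows were assigned to these starts by RefSeq accession through GENCODE M21, after the values had been seen. The row of the upstream start held 18 and 32 counts in WT, 63 in the library labelled TopBP1cKO replicate 1 and 205 in replicate 2. The 2 rows of the downstream start together held 164 and 161 counts in WT, against 193 and 204 in the libraries labelled TopBP1cKO. In sum, the rows matched to the downstream start were thus nearly level across the 4 libraries, and the upstream row was not. Singly the 2 downstream rows were uneven. In the order WT 1, WT 2, TopBP1cKO 1 and TopBP1cKO 2, they held 46, 161, 135 and 204 counts, and 118, 0, 58 and 0. The upstream start took 9.89% of the counts of both starts in WT replicate 1 (95% Wilson interval 6.35 to 15.1) and 16.6% in WT replicate 2 (12.0 to 22.5). It took 24.6% (19.7 to 30.2) and 50.1% (45.3 to 54.9) in the libraries labelled TopBP1cKO replicates 1 and 2, and these intervals cover counting error only. The other 4 rows, which had no matched start, held 45 and 50 counts in WT. They held 36 and 154 in the libraries labelled TopBP1cKO replicates 1 and 2. These counts enter neither start, so their assignment could change the level of either form and the shares. The upstream row tested by itself gave 2.36 on the log2 scale (SE 0.85, FDR 0.802 over 29581 transcripts tested). This division between starts rests on the same unstated rule.

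**Figure D2:**
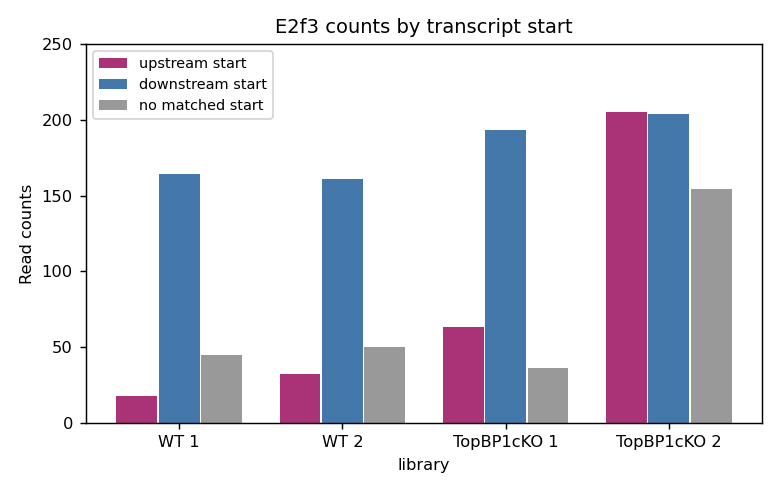
Read counts of *E2f3* in each library, as bars from 0, by the start of the transcript. The upstream row goes from 18 and 32 counts in WT to 63 and 205 in the libraries labelled TopBP1cKO, while the rows matched to the downstream start stay between 161 and 204 in sum. Rows without a matched start hold 45 and 50 counts in WT against 36 and 154.

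Promoter sequence was looked up because E2F genes are known to be targets of E2Fs themselves. RefSeq windows of 300 bases, from 250 bases before to 50 after a start (GRCm38.p6), were at hand for 7 of the 10 genes, and *E2f4*, *E2f5* and *Rb1* were not matched. The windows were searched on both strands for the E2F letters TTTCCCGC, TTTCGCGC, TTTGCCGC and TTTGGCGC, and for the cell cycle homology region (CHR) letters TTTGAA and TTCGAA, the latter bound by MuvB complexes. The 7 genes had 10 windows, of which those of *Tfdp1* overlapped. An E2F form was found in 5 of the 7 genes (*E2f2*, *E2f3*, *E2f7*, *Tfdp1* and *Rbl1*), at 5 distinct places, since the overlapping windows of *Tfdp1* held the same match, and no E2F form overlapped a CHR form. By comparison, 2.265% of all 32851 windows held one. That is a share per window, whereas a gene was counted if any of its windows matched. In *E2f2* it lay from 40 to 47 bases after the start of its first window, which is 120 bases upstream of the nearest GENCODE M21 start. The window of *E2f1* held neither form, but its start lies 294 bases downstream of the nearest GENCODE M21 start of the gene, so the sequence before the annotated starts was not searched. The upstream window of *E2f3* held an E2F form and a CHR form side by side, and its downstream window held neither. *E2f8* and the second window of *E2f2* had a CHR form without an E2F form. In all, a CHR form was found in 3 of the 7 genes, while 19.23% of all windows held one, again a share per window. The start of the second window of *E2f2* lies 8388 bases downstream of the first GENCODE M21 start of the gene, beside a later one. The stretches before the start are shown 5′ to 3′, with the matched letters in capitals (their reverse complement where the match was on the other strand). They lie at chr4:136180711-136180781 (plus strand) for *E2f2*, chr13:29986064-29986126 (minus strand) for *E2f3*, chr10:110745201-110745288 (plus) for *E2f7*, chr7:48881597-48881656 (minus) for *E2f8*, chr8:13338668-13338750 (plus) for *Tfdp1* and chr2:157204535-157204592 (minus) for *Rbl1*.
E2f2 (second window): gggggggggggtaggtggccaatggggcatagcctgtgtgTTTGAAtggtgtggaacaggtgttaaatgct
E2f3 (upstream start): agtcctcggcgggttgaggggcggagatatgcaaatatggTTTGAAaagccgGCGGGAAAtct
E2f7: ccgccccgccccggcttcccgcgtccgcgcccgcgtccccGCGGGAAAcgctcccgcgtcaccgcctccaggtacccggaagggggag
E2f8: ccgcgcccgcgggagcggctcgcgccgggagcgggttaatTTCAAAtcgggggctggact
Tfdp1: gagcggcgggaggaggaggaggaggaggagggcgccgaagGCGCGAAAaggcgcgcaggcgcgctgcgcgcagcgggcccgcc
Rbl1: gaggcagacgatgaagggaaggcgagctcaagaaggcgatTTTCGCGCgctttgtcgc

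Relative to the WT mean on the log2 scale, the 6 genes shown stood between 0.10 (*Rbl1*) and 0.89 (*E2f2*) in the library labelled TopBP1cKO replicate 1, and between 0.93 (*Rbl1*) and 2.22 (*E2f7*) in replicate 2. *E2f1*, whose window held no match but did not cover its annotated starts, stood within these ranges, at 0.60 in replicate 1 and 1.10 in replicate 2. Whether the matches go with the values was not tested. A match is a description of the letters in the window and not of a bound site.

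*E2f7* and *E2f8* encode the atypical E2Fs, which bind DNA without a DP partner and repress E2F target genes late in S phase. *E2f8* had 21.5 and 23.8 CPM in WT, 33.5 CPM in the library labelled TopBP1cKO replicate 1 and 79.9 CPM in replicate 2. The groups did not overlap, but the values of the latter group were far apart (log2 fold change 1.33, SE 0.35, FDR 0.308). *E2f7* had 49 and 52 counts in WT, 64 in the library labelled TopBP1cKO replicate 1 and 249 in replicate 2. At 1.56 on the log2 scale (SE 0.56, FDR 0.388) its difference was the largest of the 10 genes and rested on replicate 2, as it was 0.27 (SE 0.35) without that library.

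*E2f4* and *E2f5*, whose products act mainly as repressors with pocket proteins, had smaller differences, in opposite directions. *E2f4* had 62.9 and 80.5 CPM in WT against 75.8 and 90.0 CPM in the libraries labelled TopBP1cKO. These ranges overlapped (log2 fold change 0.21, SE 0.16, FDR 0.682). *E2f5* was the only one of the 10 that stood lower, with 199 and 190 counts in WT against 169 and 141 in the libraries labelled TopBP1cKO. Its groups did not overlap, and its log2 fold change was −0.40 (SE 0.21, FDR 0.542).

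*Tfdp1*, which encodes the DP1 partner of the E2Fs, had 38.1 and 40.4 CPM in WT, 46.3 CPM in the library labelled TopBP1cKO replicate 1 and 89.5 CPM in replicate 2 (log2 fold change 0.79, SE 0.27, FDR 0.379). *Rbl1*, which encodes p107, had 58.0 and 53.1 CPM in WT, 59.6 CPM in the library labelled TopBP1cKO replicate 1 and 105.9 CPM in replicate 2 (log2 fold change 0.57, SE 0.24, FDR 0.464). For both genes, replicate 1 stood just above WT and replicate 2 apart from the other 3 libraries. *Rb1*, which encodes pRB, varied least, with 67.1 and 63.8 CPM in WT against 68.2 and 77.4 CPM in the libraries labelled TopBP1cKO (log2 fold change 0.15, SE 0.13, FDR 0.708). In replicate 2, *Rbl1* was at 0.93 and *Rb1* at 0.24 above the WT mean on the log2 scale.

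**Figure D3:**
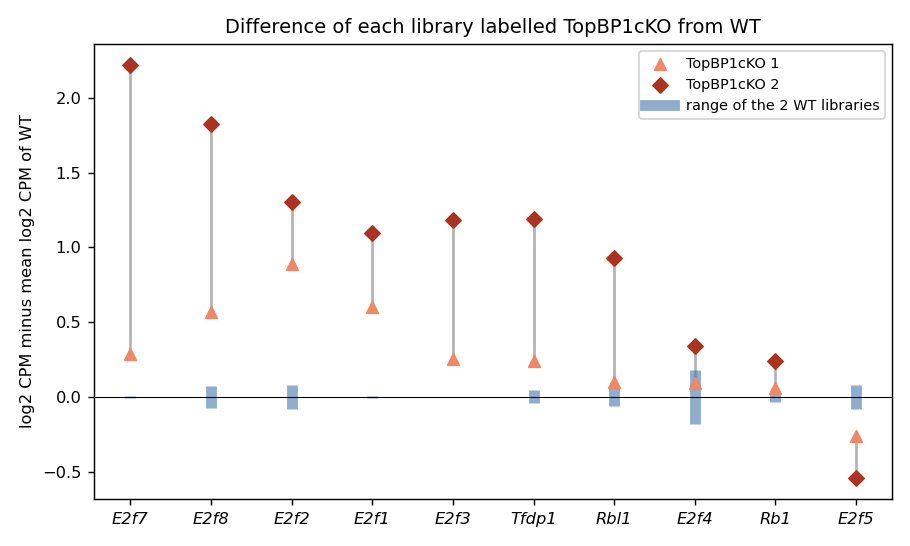
log2 CPM of each library labelled TopBP1cKO minus the mean log2 CPM of the WT libraries, for each of the 10 genes, with the range of the WT libraries as a blue bar. Replicate 2 is farther from WT than replicate 1 for all 10 genes, and for *E2f7* replicate 2 is at 2.22 and replicate 1 at 0.28.

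Leaving out a library changed the calls, with the lone library of its group then assumed to vary like the other pair. Without the library labelled TopBP1cKO replicate 1, *E2f1*, *E2f2*, *E2f3*, *E2f7*, *E2f8*, *Tfdp1* and *Rbl1* were called higher at FDR < 0.05 (log2 fold changes from 0.93 for *Rbl1* to 2.22 for *E2f7*), where 11.2% of all genes tested were called higher. Without the library labelled TopBP1cKO replicate 2, *E2f2* alone was called (log2 fold change 0.87, SE 0.16, FDR 0.00286), where 1.11% of all genes were, and the median over the 10 genes was 0.24. *E2f8* (0.56, FDR 0.052) and *E2f1* (0.59, FDR 0.073) then came next. With all 4 libraries, the DESeq2 Wald test called *E2f2* and *E2f8* higher (0.839% of all genes), and the likelihood ratio test of edgeR called *E2f1*, *E2f2* and *E2f8* (1.45% of all genes).

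The make-up of the E2F family differed between the libraries as well. As shares of the summed CPM per kb of the 7 *E2f* genes, *E2f4* and *E2f5* together made up 68.5% and 71.2% in WT, 61.4% in the library labelled TopBP1cKO replicate 1 and 49.1% in replicate 2. The activators *E2f1*, *E2f2* and *E2f3* made up 19.8% and 17.7% in WT, against 24.2% and 25.7% in the libraries labelled TopBP1cKO. *E2f7* and *E2f8* made up 11.8% and 11.1% in WT, 14.4% in the library labelled TopBP1cKO replicate 1 and 25.2% in replicate 2. Between the libraries labelled TopBP1cKO the activator share was similar, while in replicate 2 the share of *E2f4* and *E2f5* was lower and that of the atypical E2Fs, mostly *E2f8* (22.3%), was higher. The summed level itself was 57.6 and 66.7 CPM per kb in WT, against 72.1 and 102.3 in the libraries labelled TopBP1cKO. With 2 libraries against 2, an exact permutation test of such a share cannot give a P value below 0.333.

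**Figure D4:**
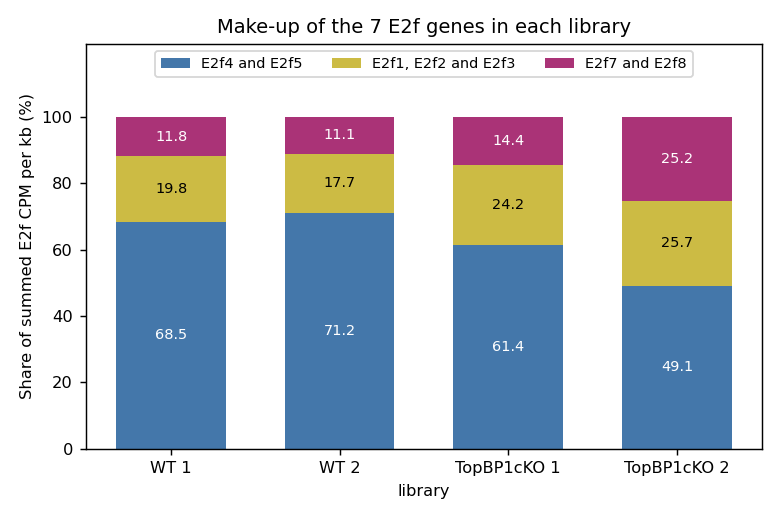
Share (%) of the summed CPM per kb of the 7 *E2f* genes held by the pocket protein partners, the activators and the atypical E2Fs in each library. *E2f4* and *E2f5* hold 68.5% and 71.2% in WT and 49.1% in the library labelled TopBP1cKO replicate 2.

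The regulators and targets of E2F were described as lists of genes, and none of the genes on the 8 lists that follow passed FDR < 0.05 by the quasi-likelihood test. At an unadjusted P value below 0.05 by that test, 6.95% of all genes tested were higher and 3.77% lower. Each count at that P value below is to be read beside these shares. Of 24 genes of DNA synthesis and the G1/S transition that are known E2F targets, all 24 had a log2 fold change above 0, and 21 had an unadjusted P value below 0.05 (median 1.33). *Chek1*, which encodes the checkpoint kinase CHK1, had 35 and 30 counts in WT against 73 and 234 in the libraries labelled TopBP1cKO (log2 fold change 2.16, SE 0.53, FDR 0.307). *Cdc6*, a licensing factor of replication origins, stood at 1.91 (SE 0.58, FDR 0.346), and *Slbp*, which encodes the stem-loop binding protein of histone mRNAs, had the smallest value of 0.24 (SE 0.21). Of 20 genes of G2 and mitosis, which MuvB complexes control, all 20 had an unadjusted P value below 0.05 with higher values (median 1.24), led by *Bub1* at 1.68 (SE 0.40, FDR 0.307) and *Cdk1* at 1.49 (SE 0.39, FDR 0.307), with the mitotic cyclin *Ccnb2* smallest at 0.79 (SE 0.29).

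In the library labelled TopBP1cKO replicate 1, the medians of these lists were 0.55 (G1/S) and 0.35 (G2/M) above the WT mean on the log2 scale. In replicate 2 they were 1.79 and 1.76. The median of the E2F and retinoblastoma genes was 0.25 in replicate 1 and 1.14 in replicate 2, so the same library stood highest in each of these lists. Without that library, 7 of the G1/S and 2 of the G2/M genes were called higher at FDR < 0.05, beside 1.11% of all genes tested, and without replicate 1 all 24 and all 20 were, beside 11.2%. Promoter windows were matched for 21 G1/S genes, of which 12 held an E2F form and 4 a CHR form. For the 17 matched G2/M genes the counts were 1 and 13, while 19.2% of all windows held a CHR form. Genes were again counted by any of their windows, so this share is in another unit.

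Among the other genes of the family and the MuvB complexes, 5 of 10 had higher values at an unadjusted P value below 0.05. *Mybl2*, which encodes the MuvB partner B-MYB and is itself an E2F target, had 84 and 91 counts in WT against 166 and 458 in the libraries labelled TopBP1cKO (log2 fold change 1.76, SE 0.43, FDR 0.307). *Foxm1*, another MuvB partner, stood at 1.11 (SE 0.40, FDR 0.392). *Rbl2*, which encodes p130, the pocket protein of resting cells, stood at 0.03 (SE 0.15), the repressor *E2f6* at 0.48 (SE 0.26) and the DP gene *Tfdp2* at 0.14 (SE 0.18). The value of *Rbl2* was thus near 0, as that of *Rb1* was.

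Of the 8 genes of G1 cyclins and their kinases, all 8 stood higher in both libraries labelled TopBP1cKO than in both WT libraries. Of all genes tested, 22.8% did. An unadjusted P value below 0.05 was found for 7 of the 8, beside 6.95% of all genes. The E-type cyclins, which are E2F targets, had the largest values, with *Ccne2* at 1.67 (SE 0.45, FDR 0.308) and *Ccne1* at 1.54 (SE 0.44, FDR 0.337), and *Cdk2* the smallest at 0.32 (SE 0.18). Of 7 CDK inhibitor genes, 5 were tested, of which 4 had a log2 fold change above 0 and 1 below (median 0.41). An unadjusted P value below 0.05 by the quasi-likelihood test was found for 2 of them, both higher. *Cdkn1a*, which encodes p21, had 81 and 111 counts in WT against 223 and 407 in the libraries labelled TopBP1cKO (log2 fold change 1.65, SE 0.31, FDR 0.237), and *Cdkn2d* stood at 0.74 (SE 0.23, FDR 0.351). *Cdkn1b*, which encodes p27, stood at −0.24 (SE 0.12, FDR 0.515). Of 5 genes for the turnover of E2Fs and other cycle proteins, 3 had an unadjusted P value below 0.05 with higher values, among them *Ccnf* (1.33, SE 0.44, FDR 0.36), whose product marks activator E2Fs for degradation, and *Cks1b* (1.10, SE 0.31, FDR 0.337), while *Fzr1* was the smallest at 0.17 (SE 0.14).

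The 9 corepressor genes that act with pocket proteins lay around 0, at a median of −0.03, with log2 fold changes from −0.33 for *Arid4a* (SE 0.12, FDR 0.389) to 0.29 for *Suv39h1* (SE 0.20, FDR 0.66), and *Sin3a* was the nearest to 0. Targets through which E2F1 can induce apoptosis had no member higher at an unadjusted P value below 0.05. Of the 7 tested, 2 were lower at that P value, beside 3.77% of all genes tested. They were *Bcl2l11*, which encodes BIM (−0.58, SE 0.16, FDR 0.337), with 652 and 629 counts in WT against 503 and 396 in the libraries labelled TopBP1cKO, and *Pmaip1*, which encodes NOXA (−0.51, SE 0.14, FDR 0.337). The median of the 7 was −0.10, and *Ppp1r13b* was the nearest to 0 at 0.03 (SE 0.14). *Trp73* and *Hrk*, the remaining genes on that list, had 0 counts in every library.

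**Figure D5:**
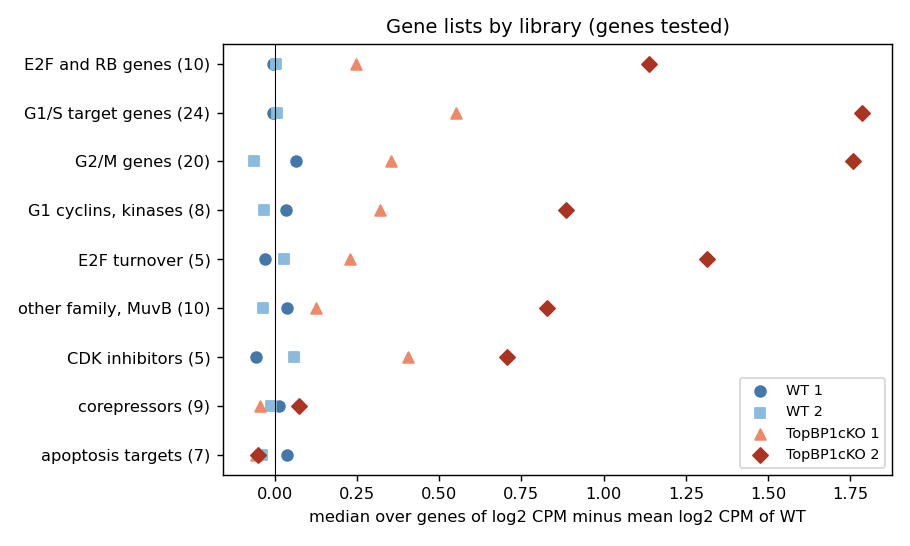
Median over the genes of each list of log2 CPM minus the mean log2 CPM of WT, 1 point per library, with the number of genes tested in brackets. The library labelled TopBP1cKO replicate 2 stands at 1.14 for the E2F and retinoblastoma genes, at 1.79 for the G1/S targets and at 1.76 for the G2/M genes, while in the same library the corepressors stand at 0.07 and the apoptosis targets at −0.05.

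The genes whose levels over the 4 libraries were most like those of *E2f8* were *Chaf1b*, a subunit of the chromatin assembly factor, and *Ska1* and *Nuf2*, which encode kinetochore proteins (root mean square difference of centred log2 CPM 0.028, 0.034 and 0.034). Those most like *E2f1* were *Pgap1*, *Donson* and *Ada* (0.034, 0.035 and 0.038), those most like *E2f4* were *Mphosph8*, *Mllt1* and *Cchcr1* (0.015, 0.022 and 0.025), and those most like *Rb1* were *Rwdd1*, *Marf1* and *Scfd1* (0.0086, 0.0094 and 0.011). Over 4 libraries such likeness is common, as 2033 genes lay within 0.1 of *Rb1*, 316 of *E2f4*, 41 of *E2f1* and 22 of *E2f8*.

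Markers of other cells also differed between the groups. The 12 neutrophil markers were at a median of 1.48 and 1.5 above the WT mean on the log2 scale in the libraries labelled TopBP1cKO replicates 1 and 2, and their summed level was 1497 and 1243 CPM in WT against 3224 and 2480 CPM in those libraries. At FDR < 0.05, 6 of the 12 were called higher (*Ngp*, *Ltf*, *Lcn2*, *S100a8*, *S100a9* and *Cd177*), and these make up 6 of the 10 genes called higher over all genes. The early granule genes *Mpo* and *Elane* differed from them, at 0.80 and 0.69 above the WT mean in replicate 1 and at −1.37 and −1.23 in replicate 2. T cell markers (6 genes, of which 4 were tested) summed to 7.84 and 7.08 CPM in WT, 22.3 CPM in the library labelled TopBP1cKO replicate 1 and 9.96 CPM in replicate 2. Markers of B cells (28.2 to 39.0 CPM summed), erythroid cells (14.7 to 19.6) and macrophages (14.8 to 18.1) were low. The 6 plasmacytoid DC markers summed to 201 and 206 CPM in WT against 181 and 175 CPM in the libraries labelled TopBP1cKO, with a median log2 fold change of −0.11. Of these, *Cox6a2* was called higher (0 and 3 counts in WT against 183 and 168, FDR 0.00762), whereas *Tcf4* (−0.33, FDR 0.389) and *Bst2* (−0.29, FDR 0.463) were lower in both libraries. *Siglech* and *Ccr9* overlapped between the groups, and *Ly6d* was higher (12 and 13 counts in WT against 43 and 15). These markers thus went in different directions. Whether the call of *Cox6a2* reflects a difference in plasmacytoid DCs or has another cause was not tested. The 10 markers of DCs and their progenitors summed to 23597 and 24542 CPM in WT, against 23187 and 18032 CPM in the libraries labelled TopBP1cKO. Most of this sum was *Cd74*, with 16701 and 17628 CPM in WT against 16585 and 12109 CPM. Relative to the WT mean on the log2 scale, the median of the 10 was −0.08 in replicate 1 and −0.26 in replicate 2. Whether any of the cell types named here contributes to the E2F values was not tested.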

How the data were processed

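The 4 files hold read counts per RefSeq transcript, which the authors deposited as whole numbers without normalization. Per the labels, the libraries were made with the CORALL RNA-seq V2 kit, and the submitters’ processing notes name fastp, STAR, Salmon, GATK and GRCm39 without versions or roles. If Salmon gave the counts, they are rounded estimates. No use of molecular identifiers is stated, so that reads may not be independent molecules.

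Counts were summed per symbol, and 12393 genes passed filterByExpr. The quasi-likelihood test of edgeR 4.0.16 (glmQLFit, glmQLFTest; R 4.3.3) was run on them after TMM normalization, and P values were adjusted by Benjamini–Hochberg across the whole table. An SE is the size of the log2 fold change divided by the square root of F. CPM use TMM effective library sizes. The biological coefficient of variation was 15.2%. The test was checked on simulated data that gave every gene the same relative spread between libraries. That check does not cover a library that stands apart from the others. DESeq2 1.42.0 and limma 3.58.1 served as alternatives. The members and lists were chosen with earlier results of these data known. All 10 genes were to be named, with *Topbp1*, 5 fixed relatives (*Mybl2*, *Foxm1*, *Rbl2*, *E2f6* and *Tfdp2*), from each list the 2 largest and the smallest log2 fold change by size, and the 3 genes most like *E2f1*, *E2f4*, *E2f8* and *Rb1*. *Trp73*, *Hrk* and the cell type markers were named after their values were seen. Transcript lengths came from GENCODE M21 (GRCm38).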

Additional observations from a re-analysis of the deposited data

How the results depend on the processing

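Over all alternatives, none of the 10 genes changed the sign of its log2 fold change, but which genes were called depended on the test and on the library labelled TopBP1cKO replicate 2. With all 4 libraries the quasi-likelihood test called 13 genes (10 higher, 3 lower), the DESeq2 Wald test 137 (104 and 33) and the edgeR likelihood ratio test 234 (180 and 54), while no filter on low counts gave 16 higher and upper quartile normalization 0 lower. Of the E2F and retinoblastoma genes, these 3 tests called 0, 2 and 3 higher, in that order. The Wald and likelihood ratio tests called 6 and 13 G1/S targets, 6 and 4 G2/M genes, 2 and 2 G1 cyclins and kinases, and 1 gene each of the MuvB, CDK inhibitor and turnover lists. limma-voom called none of the 10 genes, with 5 higher at an unadjusted P value below 0.05, beside 5.93% of all genes tested. The labels do not say whether same-numbered libraries form pairs. Their deviations had a correlation of −0.0381, which with 2 libraries per group cannot show whether they were handled as pairs. With the replicate block, 504 genes were called (395 higher, 109 lower), 6 of the 10 genes among them, with 20 G1/S targets, 19 G2/M genes, 4 G1 cyclins and kinases, 2 MuvB genes, 1 CDK inhibitor and 2 turnover genes. Leaving out 1 library at a time gave 1 to 2625 called genes (1 to 1432 higher, 0 to 1193 lower), 0 to 7 of the 10 genes and a median of these from 0.24 to 1.14. By list the calls higher ran from 0 to 24 for G1/S targets, 0 to 20 for G2/M genes, 0 to 8 for G1 cyclins and kinases, 0 to 6 for MuvB genes, 0 to 4 for turnover, 0 to 2 for CDK inhibitors, 0 to 3 for corepressors (lower 0 to 1) and 0 to 1 for apoptosis targets (lower 0 to 2), and each upper value was reached without the library labelled TopBP1cKO replicate 1. *Topbp1* stood at −0.20 with all libraries, at 0.11 without that library and at −0.61 without replicate 2. The cause of these differences was not tested. With 2 libraries per group, the spread within a group is poorly known.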
